A study of Mus musculus with 8 samples.

Results

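The hypoxia-inducible factors, the proteins that set their stability and the vascular endothelial growth factors Vegfa and Vegfb were examined in satellite cells, the stem cells that repair skeletal muscle. The 10 genes were Hif1a, Epas1, Hif3a, Arnt, Vhl, Egln1, Egln2, Egln3, Vegfa and Vegfb, taken as every non-control probe that carries their name on the array. They have 19 of the 55681 probes and are 10 of the 21245 named genes. Satellite cells were sorted from muscle 3 days after cardiotoxin, a venom toxin that destroys muscle fibres (injured, n = 4 arrays), or from basal muscle without it (n = 4 arrays). The mice of both groups were labelled C57BL/6 males of 3 months, each array held a labelled biological replicate, and the labels state no pooling. The sort kept cells with integrin alpha 7 and removed cells with CD31, CD45, CD11b or Sca1. The comparison asks what differs between satellite cells the submitters call activated and quiescent.

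Hypoxia-inducible factors are pairs of an oxygen-sensitive alpha subunit (Hif1a, Epas1, Hif3a) and the constitutive beta subunit Arnt, and they bind the core sequences ACGTG and GCGTG of target genes. In oxygen, the prolyl hydroxylases Egln1, Egln2 and Egln3 mark the alpha subunits, and Vhl, the recognition part of a ubiquitin ligase, sends the marked protein to the proteasome. Much of this control acts on protein, which arrays of RNA do not measure. Vegfa, the main growth factor of blood vessel endothelium, is a classical target.

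Probes of the same gene differed in what they read, so the sequences behind the largest disagreement are shown first. The 3 Epas1 probes lie within a short stretch of chromosome 17 on the + strand (mm9), at chr17:87230587-87230646 (A_55_P2053988), chr17:87230678-87230737 (A_55_P2077448) and chr17:87232615-87232674 (A_51_P250058). The lines below give 30 of the 60 bases of each, 5′ to 3′ as on the array, with the longest run of C and T in capitals.
Epas1 A_55_P2077448, bases 21 to 50: aagaTTTCCCCCTCCCTCCCTCCCTTgaat
Epas1 A_55_P2053988, bases 1 to 30: ccaagcagtggCCTTTatctgacatgctca
Epas1 A_51_P250058, bases 31 to 60: actgcattgtcaaaTTCCTactgacgacat
The run in A_55_P2077448 is 22 bases long, and 0.104% of the 55681 probes hold a run at least as long. The runs in the other Epas1 probes are 5 bases, which 73.2% of probes reach.

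The other sequences shown are the stretches of 250 bases before the starts of Egln3 and Egln1, the prolyl hydroxylase genes that differed most in their response. They come from RefSeq on GRCm38.p6, both genes lie on the - strand, and capitals mark ACGTG or its reverse complement CACGT.
Egln3, chr12:54203875-54204124, - strand: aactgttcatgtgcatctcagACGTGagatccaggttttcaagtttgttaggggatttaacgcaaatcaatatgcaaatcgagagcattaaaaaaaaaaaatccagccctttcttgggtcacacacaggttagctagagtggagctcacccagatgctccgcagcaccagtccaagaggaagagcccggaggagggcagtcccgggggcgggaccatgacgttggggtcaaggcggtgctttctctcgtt
Egln1, chr8:124949255-124949504, - strand: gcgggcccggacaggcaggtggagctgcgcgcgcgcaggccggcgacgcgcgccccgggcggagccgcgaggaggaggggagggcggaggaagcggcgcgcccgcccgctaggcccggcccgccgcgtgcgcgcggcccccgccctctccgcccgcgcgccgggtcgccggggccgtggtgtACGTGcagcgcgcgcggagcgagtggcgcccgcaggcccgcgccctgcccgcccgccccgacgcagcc
Egln3 has ACGTG at base -229 before its start, and Egln1 has it at -68 and GCGTG, left in lower case, at -126. Over 11 such windows of 9 of the 10 genes, 5 held ACGTG or CACGT and 7 held GCGTG or CACGC on either strand. Among 32851 windows of 27025 genes, 16.6% held ACGTG and 28.2% held GCGTG on either strand, and a window can hold both. Of the 2 windows with neither, 1 is the more upstream window of Vegfa (chr17:46032378-46032627, - strand) and 1 that of Vhl. The Vegfa matches lie in its other window (chr17:46025164-46025413), which is further downstream along the gene. A match is a string of letters here, not a measured binding site.

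On each array 59305 spots were not controls, none of them was saturated, and the share well above background was 50.1% to 56.7%. Over 23385 probes, r across probes was 0.989 to 0.996 between injured arrays, 0.848 to 0.925 across the groups, and 0.955 to 0.978 between basal arrays. The satellite cell factor Pax7 was well above background on every array, with log2 signal of 1.81 to 1.99 on injured arrays against 4.38 to 5.40 on basal arrays. Injured 2, 3 and 4 went against their label: their log2 signal of Xist, the RNA of the silenced X chromosome, was 6.37 to 6.57, against 1.72 on injured 1 and 3.85, 2.15, -1.12 and -4.97 on basal 1 to 4. The Y-linked Ddx3y, Eif2s3y and Kdm5d were not above background on injured 2, 3 and 4, and Ddx3y was above it on injured 1 and every basal array. Xist was above background on injured 1 and basal 1, 2 and 3 too, so those arrays held both Xist and a Y-linked transcript. Basal 1 and basal 2 stood apart through endothelial transcripts: Pecam1, the CD31 that the sort removed, had log2 signal of -3.11 to -1.82 on injured arrays against 3.20, 2.87, -2.20 and -3.22 on basal 1 to 4. All injured arrays lay on 1 slide with its scan and all basal arrays on another, so that slide, scan and injury cannot be told apart. Values below are therefore also given without these arrays where that bears on a call. In sorted populations, fewer cells of a type and less RNA per cell cannot be told apart.

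By the brightest probe of each gene, Egln3 had 13-fold higher signal in satellite cells after injury, with smaller rises of Egln2 and Vegfb. Hif1a, Epas1 and Arnt had lower signal by these probes. The other probe of Hif1a (log2 difference 1.04) and that of Egln2 (-0.21) went the other way and were not called. Vegfa, Egln1 and Hif3a were not called by their brightest probe, and Vhl was too dim to be tested. Values are log2 processed signal relative to the 75th percentile of the array, called log2 signal, and differences are injured minus basal with moderated SE. Limma's test took the brightest probe of each gene, adjusted over all 13434 genes tested, and called a gene at an adjusted p under 0.05. Of the 9 genes tested, 3 were higher, where 35.5% of all genes were, and 3 were lower, where 24.7% were. Together 60.2% of all genes were called, so the count of 6 of 9 is near that background, and the groups did not overlap for the same 6 genes (57.2% of all genes). The median difference of all genes was 0.17. Tested probe by probe, 4 of 17 probes were higher (31.7% of 31315 probes), 7 lower (25.1%) and 6 not called, where 56.9% of all probes were called in either direction. Values of the groups did not overlap for 11 of the 17 (53.8% of all probes).

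**Figure D1:**
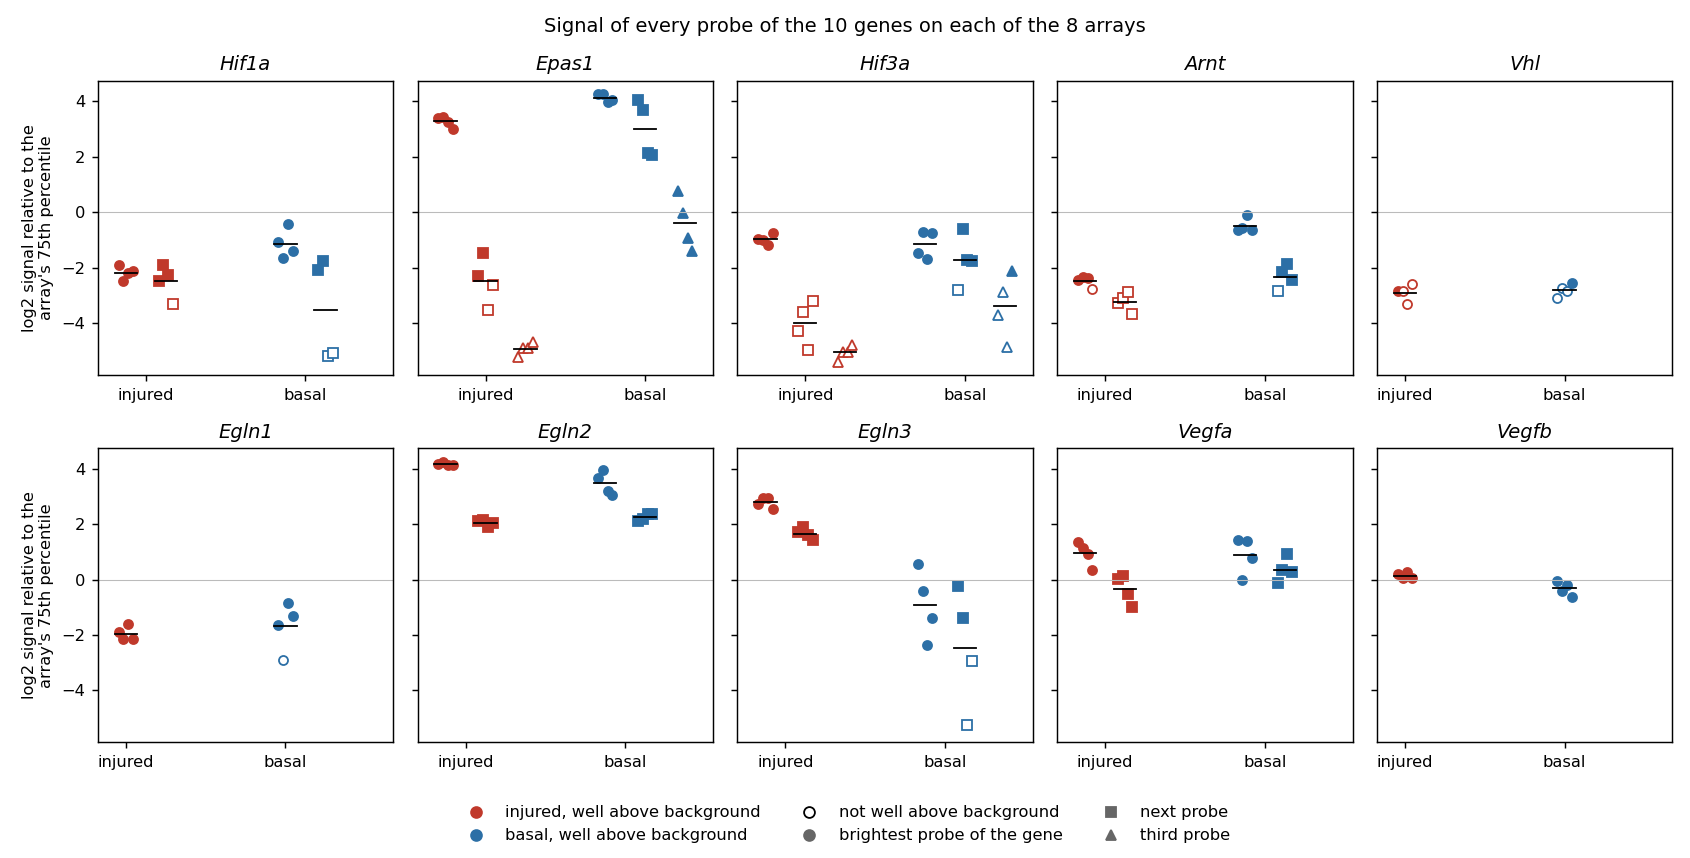
Log2 signal relative to the array's 75th percentile (vertical axis) of every probe of the 10 genes, with injured arrays in red on the left and basal arrays in blue on the right of each panel; each point is 1 array, black lines are means of 4 arrays, and open points are not well above background. Egln3 lies between 2.55 and 2.96 on injured arrays and between -2.37 and 0.55 on basal arrays with its brightest probe.

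Hif1a, the alpha subunit present in most cells, fell by its brightest probe. That probe (A_55_P2149011, chr12:75033965-75034024, + strand, mm9) had log2 signal of -1.92, -2.50, -2.18 and -2.14 on injured 1 to 4 and of -1.07, -1.66, -0.41 and -1.41 on basal 1 to 4. All injured arrays lay below all basal arrays, with the smallest gap between injured 1 and basal 2. The difference was -1.05 ± 0.27 (2.07-fold lower; limma, adjusted p = 0.00881). The array files list this brightest probe under a sequence record that is not a RefSeq mRNA. The other Hif1a probe (A_51_P387608, chr12:75047269-75047329) lies 13244 bases further along the gene and was designed on a RefSeq mRNA. Its log2 signal was -2.47, -1.91, -2.26 and -3.33 on injured arrays and -2.07, -1.78, -5.18 and -5.09 on basal 1 to 4. Basal 1 and 2 lay within or above the injured range and basal 3 and 4 were not above background. It differed by 1.04 ± 0.83 (limma over all probes, adjusted p = 0.311) with all arrays. Without basal 1 and 2 it was called higher (limma over all probes, adjusted p = 0.001), opposite to the brightest probe. No basal array was then above background, so no size is given. The fall of Hif1a therefore rests on its brightest probe, the mean of its 2 probes differed by -0.01 (adjusted p = 0.990), and the difference between the probes was not tested.

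Epas1, the alpha subunit known from endothelial cells and also called HIF-2 alpha, fell with all 3 of its probes, by very unequal sizes. The brightest probe, A_55_P2077448 with the long C and T run, had log2 signal of 3.40, 3.43, 3.27 and 3.00 on injured arrays and of 4.25, 4.25, 3.97 and 4.04 on basal arrays. Its difference was -0.85 ± 0.14 (1.80-fold lower; limma, adjusted p = 0.00105), and the groups did not overlap. A_51_P250058, 1877 bases away, had -2.31, -1.49, -3.52 and -2.63 on injured arrays and 4.04, 3.70, 2.13 and 2.07 on basal arrays. Every basal array lay over 3 log2 units above every injured array, and only 2 of 4 injured arrays were above background. Its difference was -5.48 ± 0.57 (limma over all probes, adjusted p = 0.000109). A_55_P2053988, with only 31 bases between it and the brightest probe, had -5.24 to -4.67 on injured arrays, none above background, and 0.77, -0.03, -0.92 and -1.39 on basal 1 to 4, all above background. It was at least 6.96-fold lower (adjusted p = 6.95e-05), with the lowest signal well above background on each array as the bound. The direction was shared and the size was not, and the difference between the probes was not tested.

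Markers of vessel cells are set beside Epas1 here. Of 8 endothelial markers tested of 12, 2 were lower (Tek and Cldn5), a share near the 24.7% of all genes, 1 was higher (Kdr) and 5 were not called. The median difference was -1.66, and their summed log2 level was 3.29 to 3.59 on injured arrays and 4.53 to 5.46 on basal arrays. Most of that sum is Kdr on injured arrays (3.02 to 3.32). On basal 3 and 4 it is mostly Tek (4.33 and 3.97) and Kdr (2.77 and 2.63), so there it does not stand for the whole list. The endothelial cadherin Cdh5 was above background on no injured array, and its log2 signal was -1.36 and -1.99 on basal 1 and 2 and -5.18 and -4.97 on basal 3 and 4. Tek, unlike Cdh5, was high on every basal array (3.13 to 4.33), against -1.24 to -0.44 on injured arrays. Without basal 1 and 2 the endothelial median was -0.22, while Epas1 differed by -0.73 (adjusted p = 0.00634) with the brightest probe and -4.59 (adjusted p = 0.000333) with A_51_P250058. A_55_P2053988 was also lower then (adjusted p = 3.33e-05), with no exact size, since no injured array was above background. All 8 pericyte markers were tested, 6 of them were lower (24.7% of all genes) and none higher, with a median of -2.47. Their summed log2 level was 4.15 to 4.95 on injured arrays and 6.57 to 7.27 on basal arrays. Most of that sum is Notch3, with log2 signal of 3.69 to 4.49 on injured arrays and 6.31 to 7.11 on basal arrays. Rgs5, a signalling regulator that marks pericytes, was at least 18.2-fold lower (adjusted p = 2.55e-06), Abcc9, a potassium channel subunit, at least 7.75-fold and Pdgfrb, the receptor that recruits pericytes, at least 3.78-fold, each without an injured array above background. Notch3, a receptor of mural cells and also of satellite cells, fell by 2.61 ± 0.23 (adjusted p = 4.71e-05). Pericyte markers were as low without basal 1 and 2 (median -2.38). The part of endothelial cells or pericytes in the Epas1 result was not tested. Of 5 fibro-adipogenic markers tested of 8, 4 fell (24.7% of all genes): Col3a1 by -2.74, Dcn by -7.79, Col1a1 by -2.87 and Dpt by at least 1.65-fold. Dcn and Col1a1 were each above background on 1 of 4 injured arrays, so their sizes rest mostly on background signal. Pdgfra, which defines those cells, was not above background in enough arrays of either group to be tested.

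**Figure D2:**
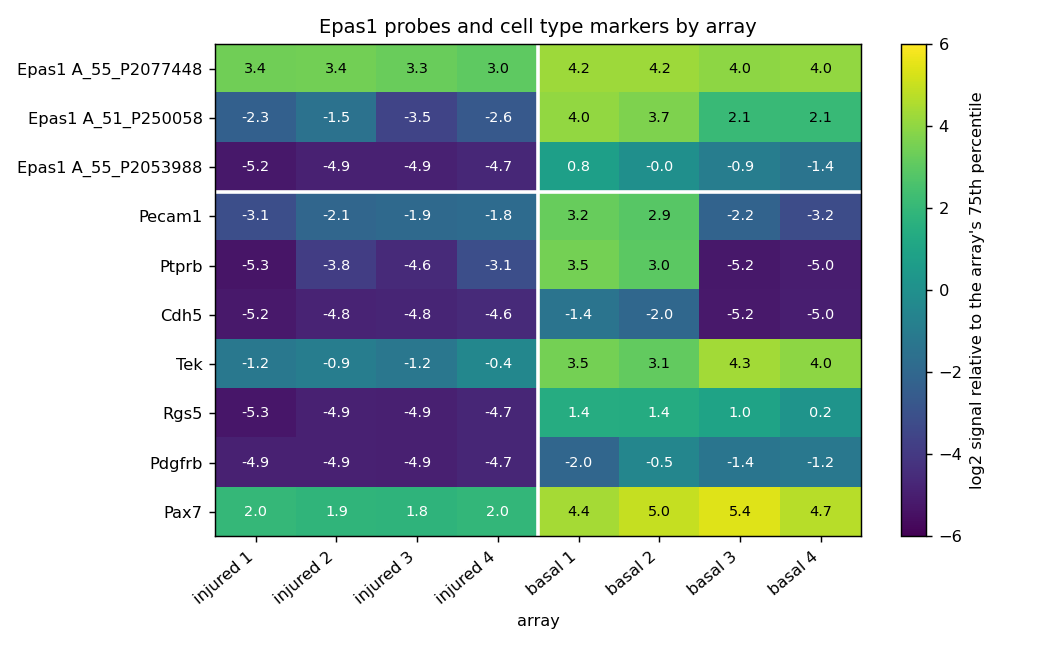
Log2 signal relative to the array's 75th percentile (colour and printed value) of the 3 Epas1 probes, 4 endothelial genes (Pecam1, Ptprb, Cdh5, Tek), 2 pericyte genes (Rgs5, Pdgfrb) and Pax7, with a column for each array and injured arrays on the left. With each Epas1 probe, all 4 injured arrays lie below all 4 basal arrays, whereas Pecam1, Ptprb and Cdh5 are high only on basal 1 and 2. Tek is high on all 4 basal arrays.

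Hif3a, an alpha subunit whose short forms can inhibit the others, was not called with its brightest probe. A_55_P2161423 (chr7:17636526-17636585, - strand) had log2 signal of -0.98, -1.0, -1.20 and -0.75 on injured arrays and of -1.47, -0.72, -1.70 and -0.75 on basal arrays, so the groups overlapped. The difference was 0.18 ± 0.24 (limma, adjusted p = 0.555). A_55_P2015541 was above background on no injured array and on 3 of 4 basal arrays, with -4.98 to -3.19 on injured and -2.81 to -0.60 on basal arrays. It was at least 2.77-fold lower (limma over all probes, adjusted p = 0.00513), and A_55_P2025730, above background on 1 basal array alone, was not tested. The mean of the Hif3a probes fell by 1.26 (adjusted p = 0.0129), so no direction is given for the gene.

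Arnt, the shared beta subunit, fell with both probes. A_55_P2100895 (chr3:95301081-95301140, + strand) had log2 signal of -2.46, -2.34, -2.36 and -2.77 on injured arrays and of -0.64, -0.58, -0.09 and -0.66 on basal arrays. Every injured array was over 1.5 log2 units below every basal array, and injured 4 was not above background. The difference was -1.99 ± 0.17 (3.97-fold lower, limma, adjusted p = 4.3e-05), and it was smaller with normexp and the 75th percentile (-0.8). A_55_P2100899, 1587 bases away, was above background on no injured array and was at least 1.60-fold lower (adjusted p = 0.0140). Of the 6 genes called with their brightest probe, Arnt alone stayed called when injured 1 was the only injured array (-1.97, adjusted p = 0.025).

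**Figure D3:**
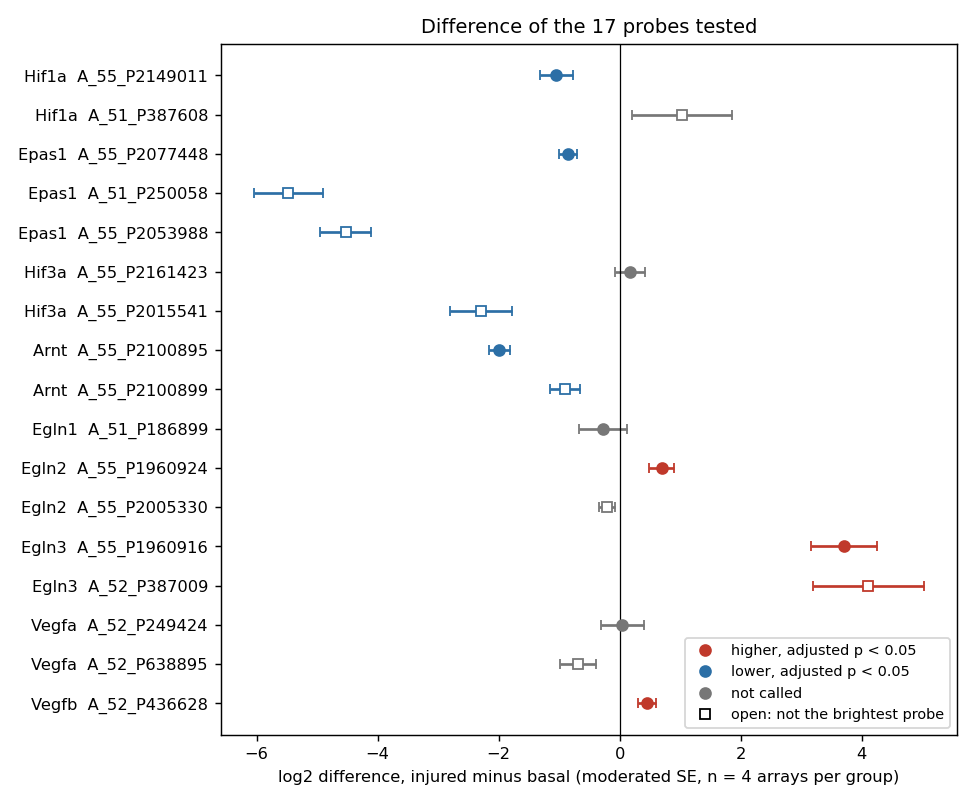
Log2 difference, injured minus basal, with its moderated SE (n = 4 arrays per group) for each of the 17 probes tested; filled circles are the brightest probe of a gene and open squares the others, red is higher, blue lower and grey not called. The 2 Egln3 probes lie at 3.70 and 4.11, whereas the 3 Epas1 probes lie between -5.48 and -0.85.

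Among the prolyl hydroxylases, Egln3 rose most. Its brightest probe (A_55_P1960916, chr12:55281252-55281311, - strand) had log2 signal of 2.73, 2.96, 2.94 and 2.55 on injured arrays and of 0.55, -0.43, -2.37 and -1.37 on basal 1 to 4. Injured arrays were tightly grouped, basal arrays spread over almost 3 log2 units, and the 2 arrays with endothelial transcripts were the highest of the basal group. The difference was 3.70 ± 0.54 (limma, adjusted p = 0.000530). Without basal 1 and 2 it was 4.67 (adjusted p = 3e-05), and with injured 1 as the only injured array 3.64 (adjusted p = 0.0778). The second probe (A_52_P387009), 239 bases away, had 1.70, 1.91, 1.62 and 1.41 on injured arrays and -0.25, -1.39, -5.25 and -2.93 on basal arrays, where basal 3 and 4 were not above background. It rose by 4.11 ± 0.92 (limma over all probes, adjusted p = 0.00509). Egln2, a hydroxylase found mostly in the nucleus, had log2 signal of 4.17, 4.23, 4.13 and 4.14 on injured arrays and of 3.65, 3.97, 3.21 and 3.05 on basal arrays with its brightest probe (A_55_P1960924, chr7:27943678-27943737, - strand). Injured arrays lay above all basal arrays, and basal 2 was the nearest. It rose by 0.70 ± 0.20 (1.62-fold; limma, adjusted p = 0.0163), whereas its other probe differed by -0.21 ± 0.13 (adjusted p = 0.188). The Egln2 call was lost with quantile normalization (0.40, adjusted p = 0.108) and with the mean of its probes (0.24, adjusted p = 0.131). Under quantile normalization the other probe was lower (-0.41, adjusted p = 0.0292).

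Egln1, the main hydroxylase of HIF-1 alpha in most cells, was not called. Its probe, placed by the array files at chr8:127432487-127432499 on the - strand, a stretch shorter than the probe, had log2 signal of -1.90, -2.15, -1.59 and -2.16 on injured arrays and of -1.64, -2.89, -0.86 and -1.31 on basal arrays, and basal 2, the lowest, was not above background. The difference was -0.28 ± 0.39 (limma, adjusted p = 0.566). Without basal 2 it was called lower (-0.68, adjusted p = 0.034), and without basal 1 and 2 it was -0.87 (adjusted p = 0.0116). Vhl (chr6:113581566-113581625, + strand) was above background on 1 injured and 1 basal array, with log2 signal of -3.32 to -2.58 on injured and -3.10 to -2.56 on basal arrays, and gave no comparison.

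The log2 ratio of 2 genes on the same array does not depend on how the arrays are scaled, and 5 ratios were compared. Egln3 to Egln1 differed most: it was 4.64, 5.11, 4.53 and 4.71 on injured arrays and 2.18, 2.46, -1.51 and -0.06 on basal arrays, a difference of 3.98. The groups did not overlap, and the exact two-sided permutation test gave p = 0.0286, the smallest that 4 arrays against 4 allow, with an adjusted p of 0.143 over the 5 ratios. Hif3a to Hif1a differed by 1.22 (exact permutation p = 0.0571, adjusted 0.143), Egln2 to Egln1 by 0.97 (exact permutation p = 0.229, adjusted 0.286) and Vegfa to Vegfb by -0.41 (exact permutation p = 0.229, adjusted 0.286). Epas1 to Hif1a differed by 0.20 (exact permutation p = 0.686, adjusted 0.686). None of the ratios passed the adjustment, and with these sizes of group none could have passed it alone.

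Vegfa was not called with either probe. The brighter (A_52_P249424, chr17:46162376-46162435, - strand) had log2 signal of 1.37, 1.14, 0.93 and 0.34 on injured arrays and of 1.43, -0.01, 1.40 and 0.79 on basal arrays. The groups overlapped fully, and the difference was 0.05 ± 0.35 (limma, adjusted p = 0.920). Its sign turned to -0.04 with quantile normalization, to -0.14 without basal 1 and 2, to -0.26 without basal 2, to -0.10 without injured 1 and to -0.02 without injured 2. The other (A_52_P638895), 7929 bases away and spotted more than once, had 0.02, 0.13, -0.51 and -0.98 on injured arrays and -0.12, 0.34, 0.92 and 0.28 on basal arrays, a difference of -0.69 ± 0.30 (adjusted p = 0.0768). It was called lower without basal 1 (-0.85, adjusted p = 0.0426). Vegfb, a ligand of Flt1 linked to lipid uptake and vessel survival, was read by 1 probe (chr19:7057245-7057304, - strand). It had log2 signal of 0.19, 0.04, 0.26 and 0.06 on injured arrays and of -0.04, -0.40, -0.20 and -0.62 on basal arrays. All injured arrays lay above all basal arrays, and injured 2 and basal 1 were the nearest. It rose by 0.45 ± 0.15 (1.37-fold; limma, adjusted p = 0.0294). The call was lost without injured 1 (adjusted p = 0.0738), injured 3 (0.0798), basal 2 (0.0643) or basal 4 (0.0606), with no filter on dim probes (0.0543) and in the authors' deposited table (0.0598). With median scaling the adjusted p was 0.05 when rounded.

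Receptors and related ligands were read from a list of 12 genes, of which 9 were tested, 3 were higher and 1 was lower. These shares are near or under the 35.5% higher and 24.7% lower of all genes. The median difference was 0.39, against 0.17 for all genes, and -0.52 over the genes above background on all arrays. The neuropilins, co-receptors of the growth factors, rose: Nrp2 by 2.33 ± 0.53 (limma, adjusted p = 0.00502) and Nrp1 by 1.95 ± 0.71 (adjusted p = 0.041). Nrp2 had -0.24, 0.17, -0.58 and -0.09 on injured arrays and -1.09, -1.99, -3.24 and -3.75 on basal arrays, without overlap. Nrp1 on basal 1 (-1.69) lay within the injured range of -2.12 to -1.64, and 1 of the 4 basal arrays was above background. Kdr, the main signalling receptor of Vegfa, rose by 0.39 ± 0.12 (adjusted p = 0.0226). The Kdr call was lost with quantile normalization, with or without normexp, and with the mean of probes. It was also lost with the replicate block and in the authors' deposited table. Tek, the angiopoietin receptor, fell by 4.69 ± 0.29 (adjusted p = 9.6e-06), with -1.24 to -0.44 on injured arrays and 3.13 to 4.33 on basal arrays, and was high on all 4 basal arrays, unlike Pecam1. Flt1, which binds Vegfa and Vegfb, differed by -1.43 ± 0.71 (adjusted p = 0.114) and was highest on basal 1 (1.18). Vegfc, Pgf, Angpt2 and Tie1 were not called either, and Vegfd, Flt4 and Angpt1 were not tested. The count of higher genes was 1 without injured 1, 3 or 4, 2 without injured 2 or basal 4 and 4 without basal 2, and 3 genes were lower without basal 3.

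Proteins that act on the hypoxia-inducible factors were read from a list of 18, of which 17 were tested. In this list 6 were higher and 3 lower, where 35.5% of all genes were higher and 24.7% lower, so the shares are at or under those of all genes. The median difference was 0.47, against 0.17 for all genes. In the ligase that carries Vhl, Rbx1, its RING subunit, rose by 1.98 ± 0.20 (limma, adjusted p = 9.93e-05), Eloc by 1.32 ± 0.26 (adjusted p = 0.00241) and Elob by 1.02 ± 0.21 (adjusted p = 0.00337). Rbx1 had 4.36, 4.53, 4.26 and 4.31 on injured arrays and 2.99, 2.25, 2.27 and 2.05 on basal arrays. The scaffold Cul2 differed by 0.47 ± 0.21 and was not called (adjusted p = 0.0823). Ube2m, which activates cullins, rose by 1.10 ± 0.18 (adjusted p = 0.000892). Os9, reported to bind the alpha subunit and the hydroxylases, fell by 1.05 ± 0.14 (adjusted p = 0.000316). Siah2, a ligase that degrades Egln3 protein, fell by 0.80 ± 0.21 (adjusted p = 0.00979), and the coactivator Crebbp fell by 0.42 ± 0.11 (adjusted p = 0.0096). Hif1an, the asparaginyl hydroxylase that blocks binding of that coactivator, differed by 0.97 ± 0.46 (adjusted p = 0.0968), and basal 2 (-0.27) lay above all injured arrays (-0.67 to -0.43).

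Known targets of the factors did not move one way. Of 33 targets outside glycolysis, 26 were tested, 7 were higher and 13 lower (median difference -0.47), whereas of 20 targets in glucose uptake and glycolysis 19 were tested, 13 were higher and 1 lower (median 1.65). Among all genes 35.5% were higher and 24.7% lower, with a median of 0.17. The 2 lists were compared by these counts only. Bhlhe40, a transcriptional repressor, fell by 4.57 ± 0.29 (limma, adjusted p = 9.61e-06), with -3.16 to -2.83 on injured arrays and 0.78 to 2.25 on basal arrays. It was above background on 1 of 4 injured arrays, so the size rests mostly on background signal. The collagen prolyl hydroxylases P4ha2 and P4ha1 were lower, P4ha2 by -3.65 ± 0.17 (adjusted p = 3.1e-06) and P4ha1 by at least 5.60-fold (adjusted p = 0.000176), since no injured array was above background. Ddit4, an inhibitor of mTORC1, fell by 3.05 ± 0.39 (adjusted p = 0.00029). In the other direction, the transferrin receptor Tfrc rose by 3.93 ± 0.46 (adjusted p = 0.00017) and the secreted glycoprotein Stc2 by 1.53 ± 0.43 (adjusted p = 0.0137), and only 1 basal array was above background for Stc2.

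In glycolysis, the enzymes Pgk1, Eno1 and Pgam1 rose most, by 3.26 ± 0.32, 3.04 ± 0.57 and 2.85 ± 0.28. Eno1 had 7.20 to 7.34 on injured arrays and 5.84, 4.76, 2.93 and 3.37 on basal 1 to 4, so that basal 1 and 2 lay nearest to the injured arrays, as they did for Egln3. Pdk3, a kinase that turns off pyruvate dehydrogenase, rose by 2.39 ± 0.62 (limma, adjusted p = 0.00977), with 1 basal array above background. Pfkfb4, which makes and removes the activator of phosphofructokinase, was the only gene called lower in this list, by -1.95 ± 0.26 (adjusted p = 0.000311). The glucose transporter Slc2a1, a classical target like Vegfa, differed by 0.12 ± 0.41 (adjusted p = 0.818). Pdk1 was too dim to be tested. Without basal 1 and 2, 8 targets outside glycolysis were higher and 11 lower, and 13 of the glycolytic targets were higher and 2 lower. Glycolytic targets lower were 3 without basal 1 and 2 without injured 1.

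**Figure D4:**
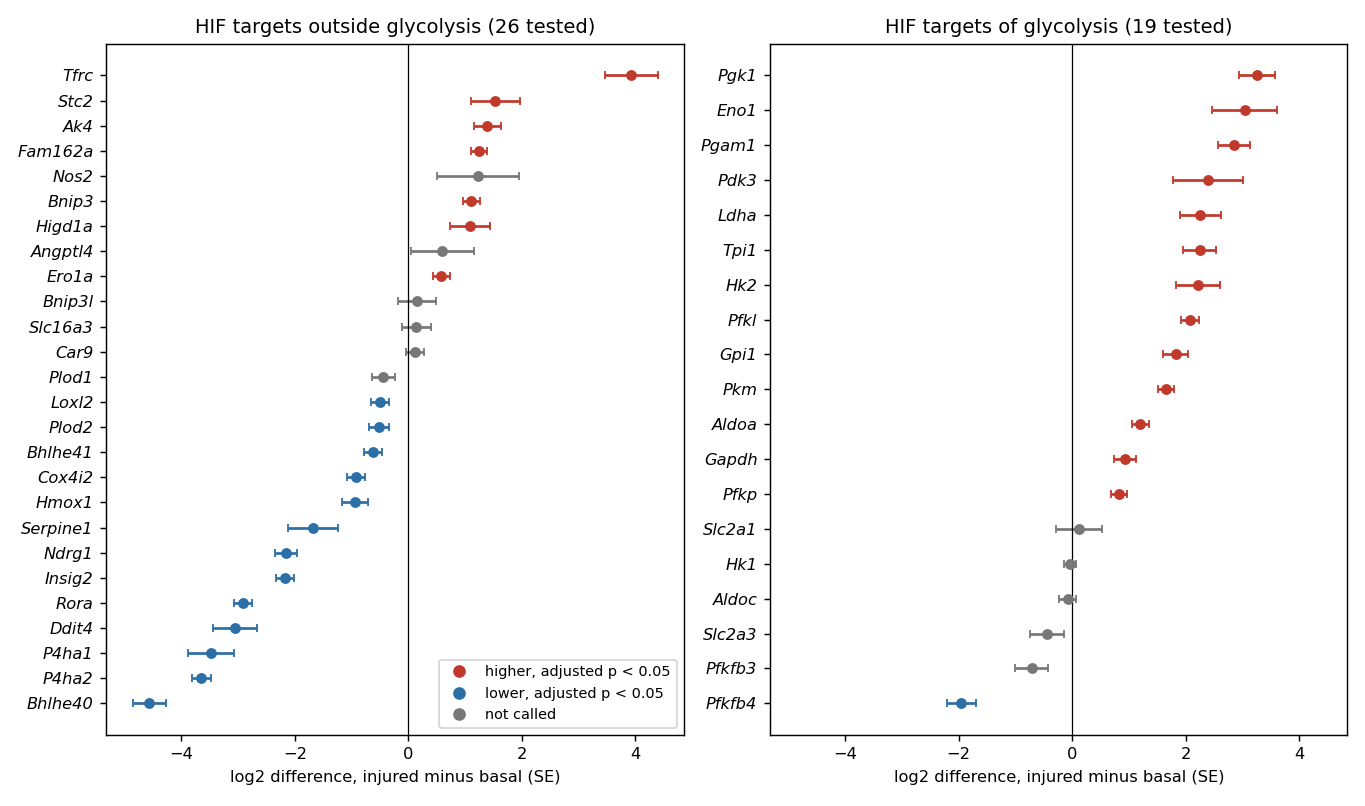
Log2 difference, injured minus basal, with its moderated SE (n = 4 arrays per group) for tested targets of hypoxia-inducible factors outside glycolysis (left, 26 genes) and in glucose uptake and glycolysis (right, 19 genes); red is higher, blue lower and grey not called. Values run from -4.57 for Bhlhe40 to 3.93 for Tfrc on the left, and from -1.95 for Pfkfb4 to 3.26 for Pgk1 on the right.

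The genes most like each of 4 members were found by the root mean square distance between profiles over the 8 arrays, each taken as deviations from its own mean. For Egln3 they were Dnph1 (0.163), Kcnn4 (0.171) and Uhrf1 (0.175), where the median distance over all genes was 1.96. For Epas1, read by its brightest probe A_55_P2077448, they were Chd7 (0.095), Tex28 (0.097) and Arhgap21 (0.098), against a median of 0.69. For Hif1a, read by its brightest probe A_55_P2149011, they were Tcea2 (0.124), Ccdc130 (0.171) and Klhl42 (0.192), against 0.82. The other probes of Epas1 and Hif1a had other profiles, and genes like those were not sought. For Vegfa, whose brighter probe varied within both groups, the nearest were 3110070M22Rik (0.235), Mtrf1l (0.258) and Polr3e (0.263), against 0.69. All of these points share the same 8 arrays, and the distances are descriptions without a test.

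The difference in the sex-linked transcripts lies between arrays of the injured group and between groups. With injured 1 as the only injured array, whose spread is then taken from the basal arrays, Hif1a differed by -0.78 and Epas1 by -0.73, Egln2 by 0.70 and Vegfb by 0.50, and of the 6 called genes only Arnt was called. The Epas1 probe A_51_P250058 also stayed lower (-5.30, adjusted p = 0.0281), as did A_55_P2053988 (adjusted p = 0.0298), which was not above background on injured 1 and has no exact size. Each kept its direction, and the part of sex in these results was not tested. In the authors' deposited table, Egln3 alone was called among the 10 genes (3.76, adjusted p = 0.00497), with Hif1a at 0.39, Epas1 at -0.03 and Arnt at -0.08 by their brightest probes. The Epas1 probe A_51_P250058 was lower there too (-3.36, adjusted p = 0.0153), and the Hif1a probe A_51_P387608 was higher (1.58, adjusted p = 0.0292). Among all genes that table gave 3289 higher and 757 lower calls, where the scanner signals gave 4766 and 3316, and its median difference was 0.48. Its columns correlated with the scanner signal of their own arrays with r of 0.571 (basal 4) to 0.952 (basal 1), so which steps made it is unknown.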

How the data were processed

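Total RNA of sorted satellite cells was labelled with Cy3 and put on 1 array per sample (4 injured, 4 basal). The authors deposited scanner files with spot intensity made with Agilent Feature Extraction 10.7.3.1, background-subtracted and detrended, without normalization between arrays, per the file headers. The authors' deposited table holds log2 values with like distributions in all columns; the labels name limma and Feature Extraction, and which steps made it is not given in the sources used here, and it served as an alternative only.

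From the scanner files, the processed signal of 59305 non-control spots per array was converted to log2, less the 75th percentile of the array. Outlier spots (1119 in all) were left out and spots of a probe averaged. Probes were named by accession (26300), current symbol (2044) or synonym (355), and 26982 had no name. A gene was its brightest probe over the 8 arrays, tested where well above background on at least 3 of 4 arrays of a group (13434 genes, 9 with a missing value). Limma 3.58.1 (R 4.3.3, with the data.table package, version 1.17.8) compared the groups, two-sided, with 6 residual and 2.56 prior degrees of freedom and Benjamini-Hochberg adjustment at 0.05. Unadjusted p was under 0.05 for 8674 genes. The fit was tested on simulated data. Other probes of a member come from the same fit over 31315 probes. A fold against a group with no array above background is a bound, set by the lowest signal well above background on each array.

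The members and the gene lists were chosen with earlier results of these data known. All members and probes are named. From each list, up to 4 called genes with the largest difference in the commoner direction and up to 2 in the other are named, with genes that complete a count of 5 or fewer. The 3 nearest profiles of 4 members are named too. Cul2, Hif1an, Slc2a1, Flt1, Pdk1, Cdh5, Pdgfra, Itgam and Ptprc, and the genes listed without a call, were chosen after their values were seen. Immune markers (6 of 8 tested, 0 higher and 1 lower, Csf1r by -0.30, median -0.15) were also compared. So were fibre markers (4 of 8 tested, Tnni2 4.01 higher, Mb and Pvalb lower, median 0.07) and satellite cell markers (10 tested, 2 higher, Itga7 and Myod1, and 6 lower, median -1.30). Of the 6 lower satellite cell markers, Chodl differed most by -6.76, then Spry1 by -4.02 and Pax7 by -2.95. Calcr was at least 32.9-fold lower, without an injured array above background. The counts of these marker lists compare the groups and do not show what the sort removed. Itgam, the CD11b of the sort, had log2 signal of 8.83 to 9.09 on injured and 8.74 to 8.95 on basal arrays. Ptprc, the CD45 of the sort, had -1.45 to -0.91 on injured and -1.67 to -0.03 on basal arrays.

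Alternatives were quantile normalization, normexp (offset 50) with either scaling, median scaling, the deposited values, other filters, the mean of probes, every probe on its own, trend and robust options, a replicate block, and leaving out arrays. No slide block could be fitted, since each of 2 slides holds 1 group. Same-numbered samples correlated by -0.003, 0.036, 0.002 and 0.093 in their deviations from the group means, so replicate numbers were not taken as pairs. The number of arrays limits the precision, and p-values set the difference of the groups against the spread between samples within a group. Each group lay on 1 slide, so that spread holds no variation between slides.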

Additional observations from a re-analysis of the deposited data

Results flagged for a closer look

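Of 38 groups of 4 arrays, 1 held an array far from the others, where chance gives about 1 in 20. On the brightest probe of Arnt (A_55_P2100895), basal 3 had a log2 signal of -0.09, and the other basal arrays lay between -0.66 and -0.58. The gap was 0.862 of the range of the group. No cause was tested.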

How the results depend on the processing

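The calls of Hif1a, Epas1, Arnt and Egln3 held whenever any 1 of the 8 arrays was left out. Egln2 stayed called then too, although its call was lost with quantile normalization and with the mean of its probes. In the authors' deposited table, Hif1a turned to 0.39, Hif3a to -1.43, Egln1 to 0.19, Arnt A_55_P2100899 to 0.23 and Vegfa A_52_P638895 to 1.03. That table called 1 member higher and 0 lower, 757 of all genes lower, and lower 0 partners, 6 targets outside glycolysis and 0 glycolytic targets. Its ratios of Epas1 and of Hif3a to Hif1a were -0.42 and -1.81. With the mean of probes, Hif3a was -1.26, Vegfa -0.32, these ratios -3.61 and -1.26, and 2 glycolytic targets were lower. Vegfa was -0.04 with quantile normalization, -0.02 with median scaling and -0.14 without basal 1 and 2, and the fibre median was -0.06 with quantile normalization. Glycolytic targets lower were 2 with median scaling, without basal 1 and 2, and with genes above background on all arrays. The last setting left 1 receptor or ligand higher with a median of -0.52, and no filter gave a median of 0.00. With normexp and the 75th percentile, Epas1 to Hif1a was -0.33. Most sizes were smaller in that setting: Arnt -0.8, Hif1a -0.45, Epas1 -0.77, Egln3 2.77, Vegfb 0.26 and the glycolytic median 0.79. Egln2 was 0.72, and these genes stayed called.

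With injured 1 as the only injured array, 751 genes were higher and 980 lower, 0 members higher and 1 lower, 1 partner higher and 0 lower, 0 receptors or ligands higher, 3 targets outside glycolysis higher and 7 lower and 4 glycolytic targets higher, and the fibre median was -0.36. Every probe on its own gave 9936 higher and 7869 lower. Leaving out each array gave Hif3a 0.00 to 0.32, Vegfa -0.26 to 0.25, receptors and ligands 1 to 4 higher and 1 to 3 lower, glycolytic targets lower 1 to 3, immune median -0.28 to 0.01, fibre median -0.10 to 0.22 and Epas1 to Hif1a -0.10 to 0.41. The replicate block gave 4499 higher and 3136 lower genes and changed no call of a member. The cause of these changes was not tested, except that fewer arrays leave fewer degrees of freedom. Low signal limits Hif1a A_51_P387608, Hif3a A_55_P2015541 and A_55_P2025730, Arnt A_55_P2100899 and Vhl. It also limits the sizes of Epas1 A_55_P2053988 and A_51_P250058 and of Egln3 A_52_P387009.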
